A study of Mus musculus with 23 samples.

Results

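The genes described here were 10 genes that neutrophils express late in their development in the marrow: S100a8, S100a9, Ngp, Camp, Ltf, Chil3, Retnlg, Cd177, Ly6g, and Olfm4. They were found by their symbols in the deposited table of TPM (expression scaled for transcript length and library size) and matched by gene ID to the count table of 67228 genes. All 10 were among the 14364 genes that were tested, those with 10 or more counts in 5 or more mice. RNA had come from femur and tibia of 23 female C57BL6/N mice, 1 library per mouse, after the marrow was spun out. The groups were WT mice given saline (WT Control, n = 5), WT mice made diabetic (WT T1D, n = 6), saline-treated knockouts (KO Control, n = 6, labelled Sarm1-KO), and diabetic knockouts (KO T1D, n = 6, also labelled Sarm1-KO). All were 11 weeks old. Type 1 diabetes (T1D) had been induced with streptozotocin, which kills the insulin-producing β cells, at 100 mg/kg after a fast on days 1 and 2, and once more on day 4 when fed blood glucose was under 300 mg/dL. T1D had lasted 3 weeks. The knockout removes Sarm1, an NADase that drives axon degeneration, from every cell of the body, and WT mice were littermates or purchased mice of the same background.

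Neutrophils are made in the marrow and carry their antimicrobial proteins in granules that are filled in a fixed order. Primary granule proteins such as myeloperoxidase are made in promyelocytes. Proteins of the specific and later granules, including lactoferrin (Ltf), cathelicidin (Camp), neutrophilic granule protein (Ngp), and olfactomedin 4 (Olfm4), are made in later precursors, as are the abundant cytosolic proteins S100A8 and S100A9, which together form calprotectin. Much of this transcription is over by the time a neutrophil enters the blood, although mature neutrophils keep calprotectin RNA.

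The 10 genes lie on 6 chromosomes of the mouse genome (GRCm38.p6). S100a8 (chr3:90669071-90670034, + strand) and S100a9 (chr3:90692630-90695721, − strand) are 22595 bases apart, and Chil3 (chr3:106147554-106167564, − strand) is farther along the same chromosome. Camp (chr9:109847377-109849456, − strand), Ngp (chr9:110419808-110423012, + strand), and Ltf (chr9:111019292-111042766, + strand) follow each other on chromosome 9 with 570351 and 596279 bases between them. Cd177 (chr7:24743983-24760334, − strand), Olfm4 (chr14:80000302-80023141, + strand), Ly6g (chr15:75155261-75159128, + strand), and Retnlg (chr16:48872608-48874498, + strand) are each on a chromosome of their own. Chil3, Retnlg, and Ly6g have close paralogs with which reads could be shared, and Olfm4 overlaps a long noncoding RNA on its own strand, so these 4 levels are less certain than the others.

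Granule genes are known targets of the myeloid factors C/EBP and PU.1, and the 250 bases before the start of each gene were searched for their cores. At least 1 TTGCNNAA (C/EBP core, either strand) was found before 5 of 10 genes (S100a9, Ngp, Ltf, Ly6g, and Retnlg), against 9.56% of 32851 windows of the same length before mouse genes. GAGGAA (PU.1 core, either strand) was found before 5 of 10 (S100a8, Ltf, Cd177, Ly6g, and Olfm4), against 23.3%. TATAAA was found before 3 of 10 (S100a8, Cd177, and Ly6g), against 12.4%. The RefSeq windows (GRCm38.p6) of 4 genes are shown 5′ to 3′ on the + strand, with matches to the C/EBP and PU.1 cores in capitals. Ngp is shown as the most abundant of the genes, Ltf as the gene with both cores and the value nearest to no change, and Retnlg and Olfm4 as the genes with the largest changes in WT mice. Ngp has its matches from 138 to 131 and from 11 to 4 bases before the start.
Ngp (chr9:110419558-110419807): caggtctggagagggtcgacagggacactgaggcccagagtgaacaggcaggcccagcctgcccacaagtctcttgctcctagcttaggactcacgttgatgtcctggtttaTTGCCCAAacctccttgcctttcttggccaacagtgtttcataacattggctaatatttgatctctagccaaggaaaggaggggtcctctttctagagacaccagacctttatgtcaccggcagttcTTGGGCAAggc
Ltf (chr9:111019042-111019291): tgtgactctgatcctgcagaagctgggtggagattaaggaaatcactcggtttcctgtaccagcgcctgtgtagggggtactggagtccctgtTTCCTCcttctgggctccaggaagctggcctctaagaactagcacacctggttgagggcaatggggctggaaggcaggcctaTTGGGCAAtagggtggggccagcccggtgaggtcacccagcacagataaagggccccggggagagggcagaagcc
Retnlg (chr16:48872358-48872607): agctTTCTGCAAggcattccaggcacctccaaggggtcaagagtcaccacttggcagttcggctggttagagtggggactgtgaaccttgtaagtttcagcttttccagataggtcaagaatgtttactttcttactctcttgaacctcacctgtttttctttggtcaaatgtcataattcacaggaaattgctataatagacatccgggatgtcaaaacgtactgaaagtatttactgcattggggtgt
Olfm4 (chr14:80000052-80000301): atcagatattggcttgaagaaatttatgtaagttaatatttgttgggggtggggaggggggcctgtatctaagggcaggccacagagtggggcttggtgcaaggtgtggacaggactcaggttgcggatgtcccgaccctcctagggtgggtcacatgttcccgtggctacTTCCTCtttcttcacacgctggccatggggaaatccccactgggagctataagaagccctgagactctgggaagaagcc
In Ltf the PU.1 core is upstream of the C/EBP core. Retnlg has a single C/EBP core near the far end of its window, and Olfm4 has a single PU.1 core. A gene was counted if any window listed for it had a match, and Ly6g had matches in more than 1 window, whereas the percentages are per window. These are matches of letters and do not show binding.

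Total counts ranged from 16938101 to 20135592 per mouse. Sarm1 had 5 to 32 counts per mouse, and its level was 1.17 ± 0.40 CPM (counts scaled to library size and composition, mean ± SD) in WT Control (n = 5) and 0.799 ± 0.50 CPM in KO Control (n = 6), 0.687 ± 0.29 CPM in WT T1D (n = 6), and 1.19 ± 0.26 CPM in KO T1D (n = 6), with overlapping values. The allele's missing exons are not given in the sources used here, so the count over the whole gene does not check the genotype. Of 23 mice, 2 WT T1D mice, A3905 and A3906, stood apart. Their summed level of 10 osteoblast and osteocyte markers was 6316 and 4874 CPM, against 52992 to 118124 CPM in the other 21, although all libraries are labelled bone. Their summed level of 12 erythroid markers was 239463 and 234586 CPM, against 81674 to 180595 CPM in the other 21. B cell markers were also below the range of the other 21 mice (181 and 220 CPM against 414 to 1089 CPM), and osteoclast markers above it (4184 and 4463 CPM against 1434 to 2831 CPM). The osteoclast list shares a gene with a list of neutrophil granule genes described below. Of the remaining marker lists of other cells, megakaryocyte markers (689 and 690 CPM against 958 to 1697 CPM) and endothelial markers (202 and 196 CPM against 203 to 302 CPM) were below the range too. Receptors and partners of calprotectin were above it (916 and 1032 CPM against 638 to 861 CPM). So were genes of neutrophil production and release (3894 and 3695 CPM against 2603 to 3405 CPM). The edgeR values with T1D in WT below are given for all mice and without A3905 and A3906. The DESeq2 fits and those in mice A36 to A39 were not repeated without them.

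Together the 10 genes took 2.53% ± 0.32 of all counts in WT Control (SD, n = 5) and 2.77% ± 0.65 in WT T1D (SD, n = 6). Their share was 2.56% ± 0.41 in KO Control and 2.49% ± 0.48 in KO T1D (SD, n = 6 each). On the TPM scale, which corrects for transcript length, Ngp was the 5th, S100a8 the 6th, and S100a9 the 8th most abundant gene over the 23 mice, at 16445, 13683, and 10728 TPM. Camp followed at 3313 TPM, then Retnlg at 1300 TPM, Ltf at 1202 TPM, Chil3 at 925 TPM, Cd177 at 371 TPM, and Ly6g at 137 TPM. Olfm4 was the lowest at 20.0 TPM. In WT Control, the ranges of S100a8 and S100a9 overlapped, as did those of Ltf and Retnlg and of Retnlg and Chil3, while every other neighbour in the order was separated in all 5 mice. Each of the 10 was counted in every mouse.

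**Figure D1:**
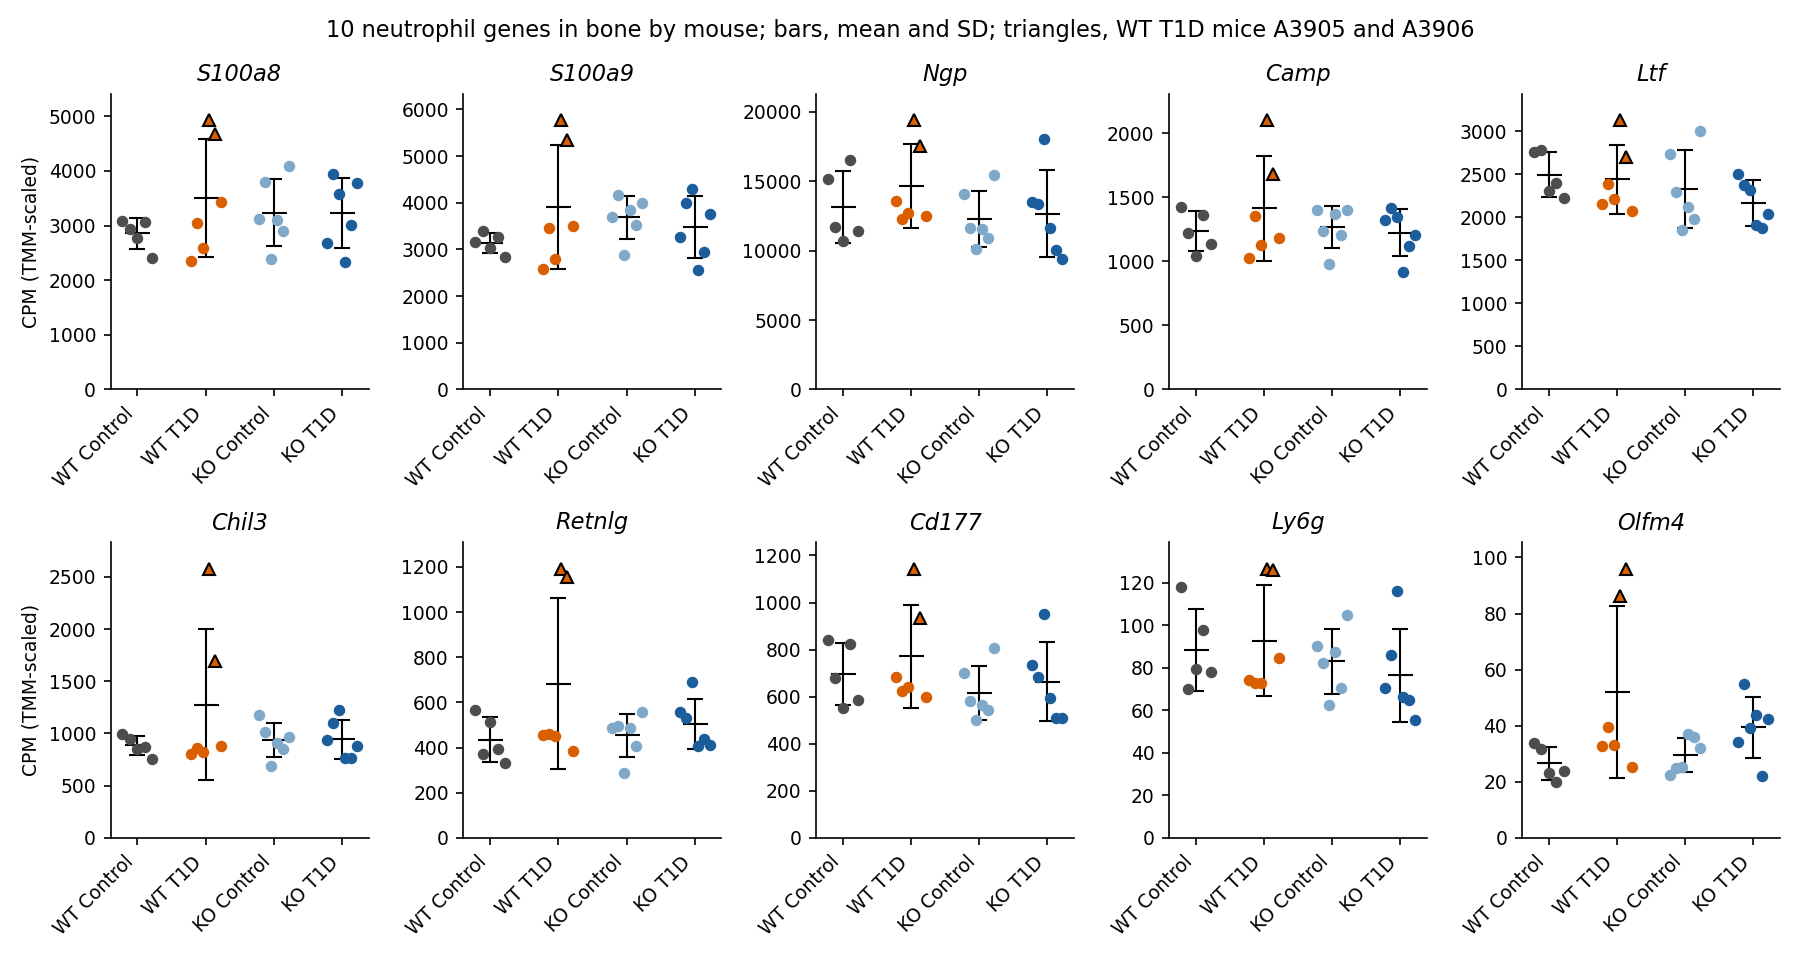
CPM of each of the 10 genes in each mouse (y axis, linear from 0), by group (x axis), with the group mean and SD as a bar. Triangles mark WT T1D mice A3905 and A3906, 1 of which was the highest mouse for each of the 10 genes; the other 4 WT T1D mice sat among the Control mice for most genes.

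T1D in WT mice was compared first. For 9 of 10 genes the WT T1D value exceeded that of WT Control, with a median log2 fold change of 0.24 (range −0.03 to 0.98), against a median of −0.01 over all tested genes. Of all tested genes, 48.1% were higher in WT T1D. None of the 10 passed an adjusted p of 0.05 (edgeR quasi-likelihood test, Benjamini-Hochberg), where 334 of 14364 genes (2.33%) did. At an unadjusted p under 0.05 there were 3 (Chil3, Retnlg, and Olfm4), against 22.2% of all tested genes, and DESeq2 called 1 (Olfm4, adjusted p = 0.039) where it called 6.98% of genes. The highest value came from A3905 for 9 genes and from A3906 for Olfm4, and these were the 2 highest of all 23 mice for 7 of the 10. The share of all tested genes with these mice highest was not computed. Bulk RNA cannot tell more cells of a type from more RNA per cell.

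Olfm4, a glycoprotein of the specific granules that only some neutrophils carry, had the largest difference. Its levels in WT Control were 33.9, 31.8, 23.1, 20.0, and 23.9 CPM. In WT T1D they were 25.2 CPM at the lowest, 36.4 CPM at the median, and 95.9 CPM at the highest. The 2 high mice were A3906 (95.9 CPM) and A3905 (86.3 CPM), and of the other 4, from 25.2 to 39.7 CPM, 3 lay within the WT Control range. The fold change was 1.97 (95% interval 1.29 to 3.00, log2 0.98 ± 0.29 SE, adjusted p = 0.0647). Leaving out these 2 mice gave 0.30 ± 0.21 on the log2 scale (adjusted p = 0.627).

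Retnlg encodes resistin-like γ, a small secreted protein of the resistin family found in marrow and neutrophils. Its levels in WT Control were 566, 373, 515, 392, and 330 CPM. In WT T1D the lowest was 385 CPM, the median 458 CPM, and the highest 1191 CPM. A3905 (1191 CPM) and A3906 (1154 CPM) were more than double any other WT mouse, and the other 4 lay within the WT Control range. The log2 fold change was 0.65 ± 0.27 (SE, adjusted p = 0.157), and 0.01 ± 0.18 without these mice.

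Chil3 encodes a chitinase-like protein (Ym1) that neutrophil precursors make in large amounts and that some macrophages also make. WT Control levels were 999, 952, 848, 873, and 754 CPM. WT T1D levels were 804 CPM at the lowest, 873 CPM at the median, and 2576 CPM at the highest. Again only A3905 (2576 CPM) and A3906 (1692 CPM) were above WT Control, and the other 4 fell inside its range. The log2 fold change was 0.53 ± 0.24 (SE, adjusted p = 0.207), and −0.07 ± 0.14 without them.

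The calprotectin genes had values close to each other. S100a9 levels in WT Control were 3166, 3390, 3037, 3264, and 2833 CPM, and in WT T1D they were 2581 CPM at the lowest, 3481 CPM at the median, and 5763 CPM at the highest. S100a8 levels in WT Control were 3092, 2946, 2771, 3073, and 2403 CPM, and in WT T1D they were 2354 CPM at the lowest, 3233 CPM at the median, and 4927 CPM at the highest. For S100a9, 4 of 6 WT T1D mice were above every WT Control mouse and the other 2 were below every one, so the WT T1D group lay on both sides. The log2 fold changes were 0.32 ± 0.18 for S100a9 (SE, adjusted p = 0.299) and 0.29 ± 0.18 for S100a8 (SE, adjusted p = 0.349). With A3905 and A3906 left out they were −0.03 ± 0.14 and −0.01 ± 0.16.

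The antimicrobial granule genes differed less. Ngp, related to the cystatins, was between 10728 and 16555 CPM in WT Control and between 12249 and 19383 CPM in WT T1D (log2 fold change 0.16 ± 0.17 SE). Camp, the precursor of the cathelicidin peptide, was between 1040 and 1423 CPM and between 1030 and 2101 CPM (0.19 ± 0.16 SE). Ltf, the iron-binding lactoferrin, was the only one of the 10 with a negative value (−0.03 ± 0.13 SE), with 2223 to 2779 CPM in WT Control and 2077 to 3123 CPM in WT T1D. The 95% interval for Ltf ran from a fold of 0.813 to 1.18, the narrowest of the 10 on the log2 scale. With A3905 and A3906 left out, the log2 fold changes were −0.04 ± 0.17 (SE) for Ngp, −0.08 ± 0.13 for Camp, and −0.18 ± 0.13 for Ltf.

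The surface genes had changes smaller than their SE, although A3905 and A3906 were above every WT Control mouse for both. Cd177, a GPI-anchored protein of the neutrophil surface and specific granules, was between 551 and 839 CPM in WT Control and between 599 and 1143 CPM in WT T1D (log2 fold change 0.15 ± 0.18 SE). Ly6g, the GPI-anchored antigen by which mouse neutrophils are usually sorted, was between 70.0 and 118 CPM and between 72.6 and 126 CPM (0.07 ± 0.19 SE). With A3905 and A3906 left out, both were negative (−0.13 ± 0.17 SE and −0.22 ± 0.18 SE). Over all 10 genes the median log2 fold change without these mice was −0.06, 2 were higher in WT T1D, and edgeR called 0 of 14364 genes (1575 at an unadjusted p under 0.05).

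**Figure D2:**
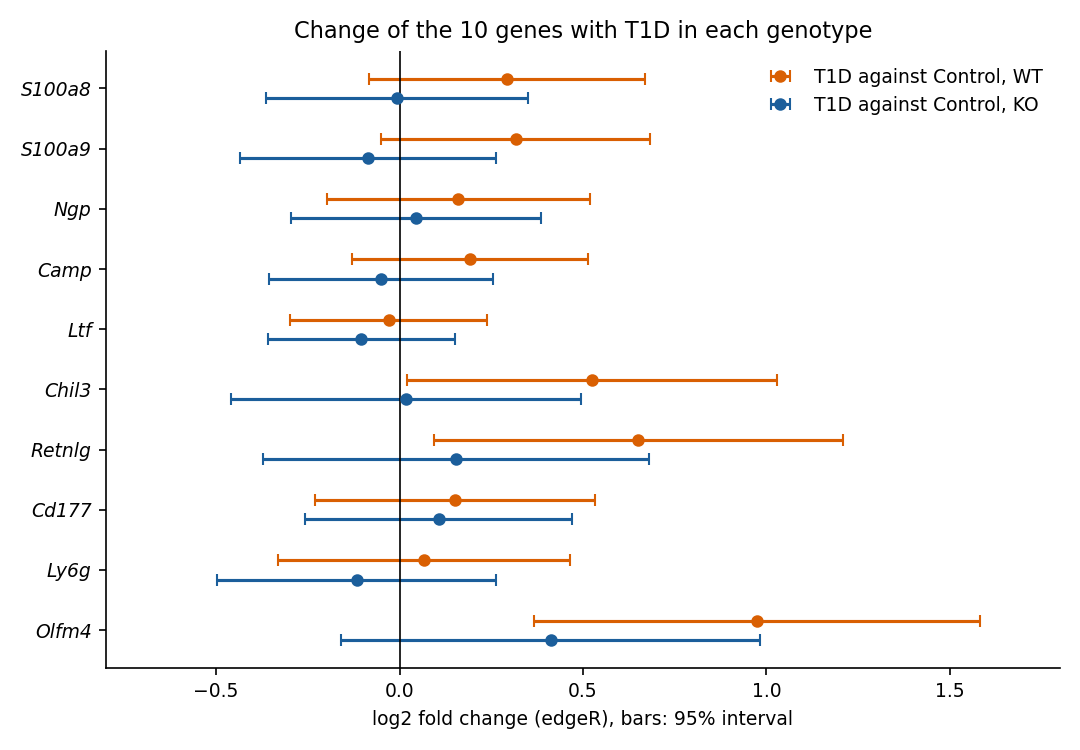
Log2 fold change with T1D from edgeR (x axis) for each gene (y axis) in WT mice and in mice labelled KO, with 95% intervals. In WT the values run from −0.03 (Ltf) to 0.98 (Olfm4), in KO from −0.12 (Ly6g) to 0.41 (Olfm4), and none passed an adjusted p of 0.05.

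The labels give mouse IDs in 2 number series, A17 and A36 to A39. The A17 series held 1 WT Control and 3 WT T1D mice and no mouse labelled KO. Among mice A36 to A39 alone, 4 WT Control and 3 WT T1D mice remained, of which 2 were A3905 and A3906. There 5 of 10 genes were higher at an adjusted p under 0.05 (S100a8, S100a9, Chil3, Retnlg, and Olfm4), where 15.4% of all genes passed. The log2 fold changes were 0.65 ± 0.19 (SE) for S100a8, 0.65 ± 0.18 for S100a9, 1.02 ± 0.25 for Chil3, 1.19 ± 0.29 for Retnlg, and 1.50 ± 0.33 for Olfm4. Within the A17 series WT Control had a single mouse, and no value was computed there.

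The direction depended on the scale. On log2 (TPM + 1), the median change of all tested genes with T1D in WT was −0.24, and that of the 10 genes −0.08, with 3 above 0 (Chil3, Retnlg, and Olfm4). Relative to the median of all genes the 10 were higher by a median of 0.16, against 0.25 on the CPM scale, and 9 of 10 were above that median on both scales. Of all genes, 83 were called higher and 5081 lower on that scale, against 215 and 119 on the CPM scale. A direction for S100a8, S100a9, Ngp, Camp, Cd177, or Ly6g therefore depended on the scale.

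**Figure D3:**
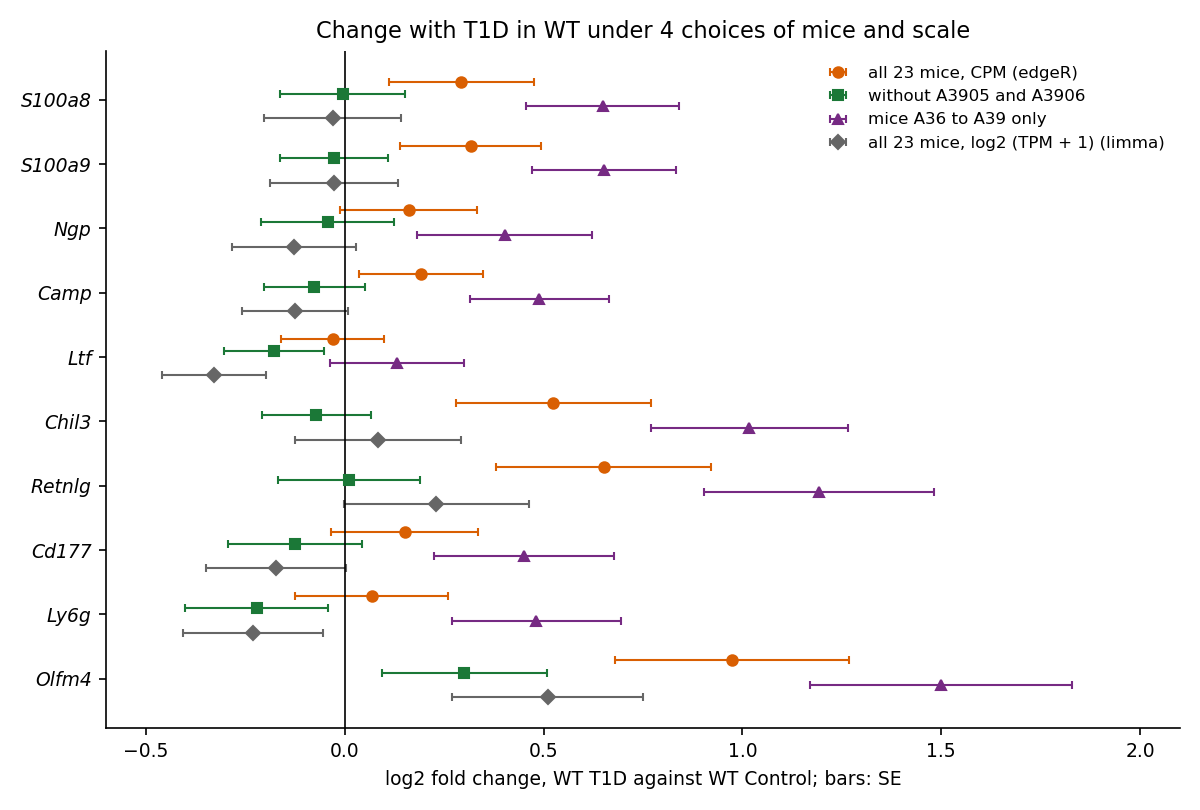
Log2 fold change between WT T1D and WT Control (x axis) for each gene (y axis) in all 23 mice on the CPM scale, without A3905 and A3906, in mice A36 to A39 only, and in all 23 mice on log2 (TPM + 1). Bars are SE. Chil3 moves from 0.53 in all mice to −0.07 without A3905 and A3906 and to 1.02 in mice A36 to A39.

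T1D in mice labelled KO was compared next. The 10 genes had a median log2 fold change of 0.01 (range −0.12 to 0.41), 5 were higher and 5 lower, and all 10 adjusted p values rounded to 1. edgeR called 0 of 14364 genes (0%), with 452 at an unadjusted p under 0.05 and none of the 10 among them. DESeq2 and limma on TPM also called none of the 10 and no other gene. Olfm4 again had the highest value. Its levels were 22.6 CPM at the lowest, 28.7 CPM at the median, and 36.9 CPM at the highest in KO Control, and 22.1, 40.9, and 54.9 CPM in KO T1D. In KO T1D, 4 of 6 mice were above every KO Control mouse and 1 was below every one, and the fold change was 1.33 (95% interval 0.896 to 1.98).

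Retnlg ranged from 289 to 559 CPM in KO Control and from 405 to 691 CPM in KO T1D (log2 fold change 0.15 ± 0.25 SE). Chil3 ranged from 689 to 1174 CPM and from 764 to 1222 CPM (0.02 ± 0.23 SE). S100a8 ranged from 2393 to 4092 CPM and from 2342 to 3937 CPM (−0.01 ± 0.17 SE), and S100a9 from 2878 to 4166 CPM and from 2551 to 4299 CPM (−0.09 ± 0.17 SE). None of these groups was separated. The 95% intervals of S100a8 covered folds of 0.777 to 1.28, so changes of this size could not be told from none.

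Of the others, Ngp and Cd177 had values above 0 (0.04 ± 0.16 SE and 0.11 ± 0.18 SE), and Camp, Ltf, and Ly6g below 0 (−0.05 ± 0.15 SE, −0.10 ± 0.12 SE, and −0.12 ± 0.18 SE). A3683 had the highest Ngp (18064 CPM), Cd177 (953 CPM), and Ly6g (116 CPM) of the KO T1D mice. Among all 23 mice its Ngp and Cd177 were second to A3905 alone.

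The difference between the genotypes in the response to T1D was tested as an interaction. It was negative for all 10 genes, from −0.56 ± 0.40 (SE) for Olfm4 to −0.04 ± 0.25 for Cd177, with adjusted p values between 0.558 and 0.964. It was positive for 51.0% of all tested genes. The 10 genes vary together across mice, so their signs are not independent. edgeR called 0 of 14364 genes (0%) here, with 1467 at an unadjusted p under 0.05 and none of the 10 among them. DESeq2's likelihood ratio test also called none of the 10 and no other gene. On log2 (TPM + 1), where the median of all genes was 0.20, 5 of 10 values were positive and 9 were below that median. Leaving out A3905 and A3906 made 8 of 10 positive. Averaged over genotypes, T1D gave no call among the 10 (16 of all genes, 0.111%, were called), and Olfm4 had a log2 fold change of 0.69 ± 0.20 (SE, adjusted p = 0.117). Retnlg and Olfm4 were under 0.05 before adjustment, against 16.4% of all genes. With A3905 and A3906 left out, Olfm4 was at 0.35 ± 0.14 (SE, adjusted p = 0.363) and Retnlg at 0.08 ± 0.12 (SE). In mice A36 to A39, 2 of the 10 passed this average, where 3.74% of all genes did.

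Between genotypes, the Control mice showed no call among the 10, and 4 of 14364 genes (0.0278%) were called overall. Their log2 differences (KO minus WT) ran from −0.17 for Cd177 to 0.23 for S100a9, with adjusted p values of 0.9985. S100a9 was above every WT Control mouse in 5 of 6 KO Control mice (KO Control median 3775 CPM). In T1D all 10 genes were lower in mice labelled KO, from −0.44 ± 0.25 (SE) for Retnlg and −0.43 ± 0.23 for Chil3 to −0.12 ± 0.17 for S100a8, and none passed (adjusted p between 0.341 and 0.757), where 13 genes (0.0905%) did. Of all tested genes, 51.3% were higher in mice labelled KO in T1D. This comparison and that of T1D in WT share the 6 WT T1D mice, so their values are not independent. On log2 (TPM + 1), where the median of all genes was 0.17, 4 of 10 were higher in mice labelled KO and none was above that median. With A3905 and A3906 left out, 8 of 10 were higher on the CPM scale, with Retnlg at 0.20 ± 0.17 (SE), Chil3 at 0.16 ± 0.13, and S100a8 at 0.18 ± 0.15. In mice A36 to A39, Chil3 (−0.88 ± 0.22 SE, adjusted p = 0.0224) and Retnlg (−0.86 ± 0.26 SE, adjusted p = 0.0433) were lower, where 10.7% of all genes passed.

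In none of the 4 pairwise comparisons were the groups free of overlap for any of the 10 genes. Over all tested genes the groups did not overlap for 2.19% with T1D in WT, 0.258% with T1D in KO, 0.613% between genotypes in Control, and 0.863% between genotypes in T1D.

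**Figure D4:**
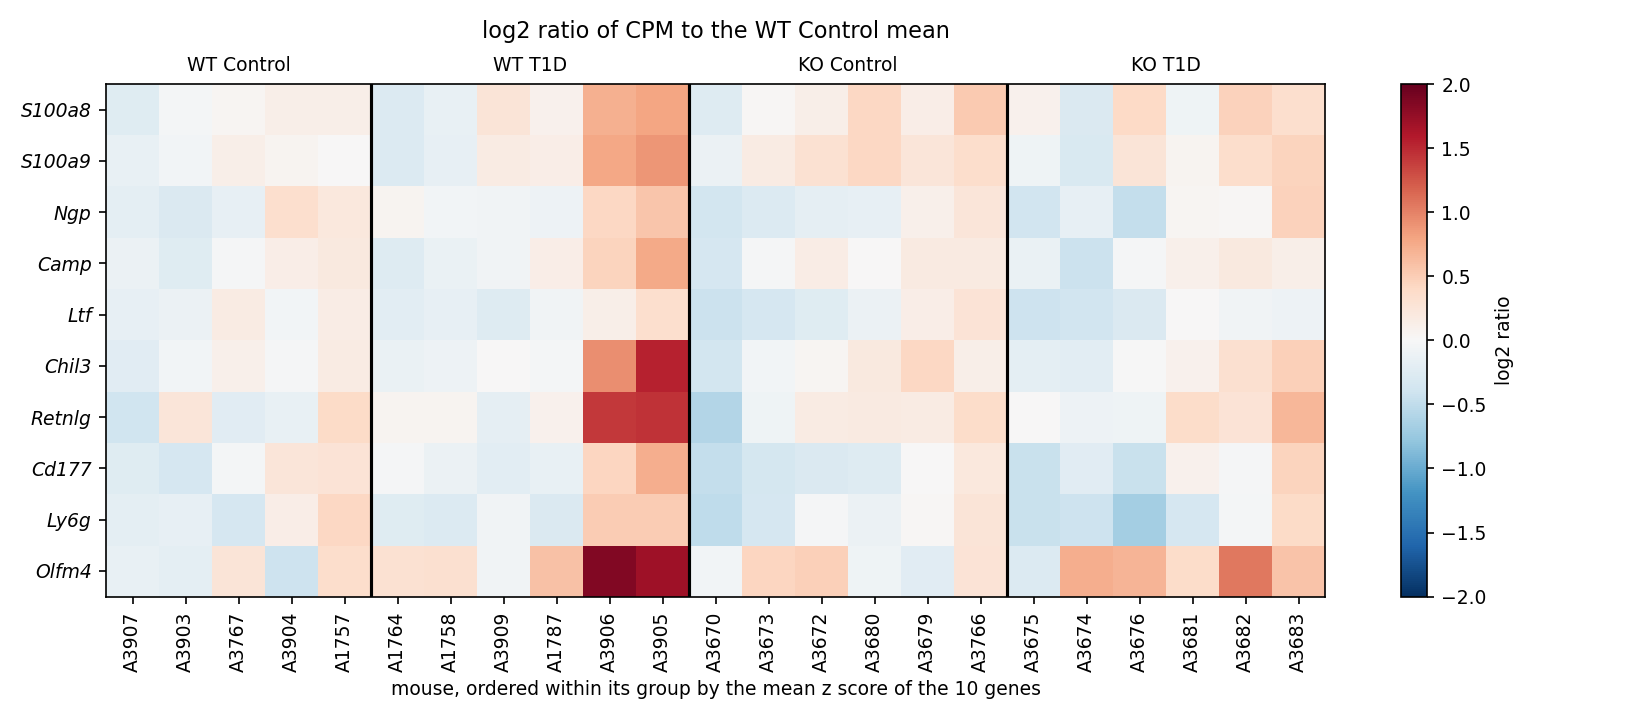
Log2 ratio of each gene's CPM to the WT Control mean (colour) in each mouse (columns, ordered within group by the mean z score of the 10 genes). The columns of A3905 and A3906 are above 0 for each gene, with ratios from 1.25 (Ltf) to 3.25 (Olfm4) in A3905 and from 1.08 (Ltf) to 3.62 (Olfm4) in A3906.

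In A3905 and A3906 the genes did not differ from WT Control by one common factor. Relative to the WT Control mean, A3905 had 3.25 times the level of Olfm4, 2.91 times that of Chil3, and 2.74 times that of Retnlg. S100a9 was at 1.84 times, S100a8 at 1.72, Camp at 1.70, Cd177 at 1.64, Ngp at 1.48, Ly6g at 1.43, and Ltf at 1.25 times. A3906 had 3.62 times the level of Olfm4 and 2.65 times that of Retnlg, but 1.91 times that of Chil3 and 1.08 times that of Ltf. The other 4 WT T1D mice lay between 0.82 and 1.50 times the WT Control mean for all 10 genes.

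Mice with more of one gene had more of the others. Over the 45 pairs of the 10 genes, the deviations from group means of log2 (CPM + 0.5) correlated with a median r of 0.74 (range 0.43 to 0.98, 23 mice), and without A3905 and A3906 with a median of 0.63 (range 0.10 to 0.98, 21 mice). All genes of a mouse share a library and its depth. The closest pairs were Ngp with Cd177 (r = 0.98 without these mice), S100a8 with S100a9 (0.90), and Ngp with Ly6g (0.89). Olfm4 was the least coupled, and its r without these mice was between 0.10 and 0.26 with each of the other 9. The calprotectin genes were less tied to Ngp (0.33 for S100a8 and 0.41 for S100a9) than to each other.

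The genes outside the 10 whose log2 CPM was most like the mean of their z scores over the 23 mice were Pirb, Mcemp1, 4930438A08Rik, Itgb2l, Cd300lf, Arrb2, Cd33, Ncf1, Ifitm6, and Hp (r between 0.93 and 0.95, and between 0.80 and 0.94 in the 21 mice without A3905 and A3906). Among them are receptors of myeloid cells (Pirb, Cd33), a neutrophil integrin (Itgb2l), a subunit of the NADPH oxidase (Ncf1), and haptoglobin (Hp). None of them passed the test with T1D in WT.

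Other neutrophil genes were read from lists. Of 18 other late granule and cytosolic genes, 0 were called with T1D in WT by edgeR (3 at an unadjusted p under 0.05) and 16 had values above 0, with a median log2 fold change of 0.19. Haptoglobin (Hp) was at 0.54 ± 0.20 (SE, adjusted p = 0.108), the acute-phase gene Orm1 at 0.69 ± 0.24, and the collagenase Mmp8 at 0.52 ± 0.21. Without A3905 and A3906 they were at 0.09 ± 0.12, 0.31 ± 0.22, and 0.06 ± 0.15, and the median of the 18 was −0.09. Their summed level was 15566 CPM in A3905 and 14182 CPM in A3906 and between 7865 and 12657 CPM in the other 21 mice, so these mice stood apart for them as for the 10.

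Primary granule genes, made earlier, were read next. Of 8, the one called was Ctsc, which encodes the protease that activates the granule serine proteases and which fell with T1D in WT (log2 fold change −0.39 ± 0.10 SE, adjusted p = 0.0494). Leaving out A3905 and A3906 gave −0.30 ± 0.11 (SE, adjusted p = 0.321). The median of the 8 was 0.10, and 0.01 without these mice. Their summed level in A3905 (6948 CPM) and A3906 (6174 CPM) lay inside the range of the other 21 mice (4233 to 7945 CPM). Neutrophil elastase (Elane) was at 0.30 ± 0.19 (SE) and the proteoglycan core Srgn at 0.22 ± 0.13 (SE), and at 0.17 ± 0.21 and 0.14 ± 0.13 without A3905 and A3906.

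Of 19 genes of mature neutrophils and their responses, 3 rose with T1D in WT, all of them stefins, which inhibit cysteine proteases. Stfa2 went from 0.856 ± 0.38 CPM (SD, n = 5) to 11.2 ± 16 CPM (SD, n = 6), with a log2 fold change of 3.69 ± 0.76 (SE, adjusted p = 0.0331). Stfa1 was at 2.85 ± 0.68 (SE, adjusted p = 0.0440) and Stfa2l1 at 1.61 ± 0.41 (SE, adjusted p = 0.0458). These are near-identical copies between which reads could be split, and without A3905 and A3906 none was called (Stfa2 at 1.55 ± 0.46 SE, adjusted p = 0.289, Stfa1 at 1.00 ± 0.47 SE, and Stfa2l1 at 0.59 ± 0.24 SE). The median of the 19 was 0.34, and 0.07 without these mice.

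Of 16 genes of neutrophil production and release, Csf3, Cxcl1, and Cxcl2 were too low to test (at most 1, 4, and 8 counts in a mouse) and none of the 13 tested was called with T1D in WT by edgeR (1 at an unadjusted p under 0.05). C/EBPβ (Cebpb), a factor of emergency neutrophil production, was at 0.37 ± 0.15 (SE), the chemokine receptor Cxcr2, which draws neutrophils out of marrow, at 0.29 ± 0.20, and PU.1 (Spi1) at 0.27 ± 0.14. Without A3905 and A3906 these were at 0.31 ± 0.16, 0.0041 ± 0.19, and 0.06 ± 0.13. Of 7 receptors and partners of calprotectin, the scavenger receptor Cd36 rose in WT (0.93 ± 0.18 SE, adjusted p = 0.0251) and was lower in mice labelled KO in T1D (−0.86 ± 0.17 SE, adjusted p = 0.0489). It was not called in either without A3905 and A3906 (0.57 ± 0.13 SE, adjusted p = 0.131, and −0.50 ± 0.12 SE, adjusted p = 0.27). Ager, the receptor RAGE, was at 0.43 ± 0.26 (SE) and Bsg (CD147) at 0.31 ± 0.09 (SE, adjusted p = 0.0526), and at 0.03 ± 0.24 and 0.26 ± 0.09 without these mice. Of 12 other S100 genes, 8 could be tested and edgeR called none with T1D in WT (1 at an unadjusted p under 0.05), with a median of −0.01, and −0.06 without these mice.

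Markers of other cells moved in the same libraries. Of 12 erythroid markers, 7 rose with T1D in WT, among them the globin gene Hbb-bs and the anion exchanger Slc4a1, with a median of 0.64 over the list, and their summed level was 98668 to 144342 CPM in WT Control and 127441 to 239463 CPM in WT T1D. Of 10 osteoblast and osteocyte markers, Ibsp fell (−0.78 ± 0.15 SE, adjusted p = 0.0236), with a median of −0.77 over the list. Without A3905 and A3906, where edgeR called no gene, Ibsp was at −0.62 ± 0.14 (SE), Slc4a1 at 0.46 ± 0.13, and Hbb-bs at 0.60 ± 0.17. The medians there were 0.41 for the erythroid list, with 12 of 12 above 0, and −0.37 for the osteoblast and osteocyte list. No marker of either list was at 0 in any mouse. Over the 23 mice, the median r of a list's genes with the mean z score of the 10 was 0.37 for erythroid and −0.78 for osteoblast and osteocyte markers, and −0.26 and −0.27 without A3905 and A3906. For the other late granule genes it was 0.82 and 0.75. It was 0.83 and 0.73 for genes of mature neutrophils and their responses, and 0.51 and 0.63 for primary granule genes. The part of the erythroid, osteoblast, and osteocyte markers in the values of the 10 genes was not tested.

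Monocyte markers, the nearest relatives of neutrophils in the marrow, had a median of −0.22 with T1D in WT with none called by edgeR (3 of 6 at an unadjusted p under 0.05), and macrophage markers a median of −0.15 with none called (5 of 8 at an unadjusted p under 0.05). The medians were −0.24 and −0.15 without A3905 and A3906. In A3905 and A3906 the summed level of both lists lay inside the range of the other 21 mice (for monocytes 2061 and 1867 CPM against 1274 to 2126 CPM).

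**Figure D5:**
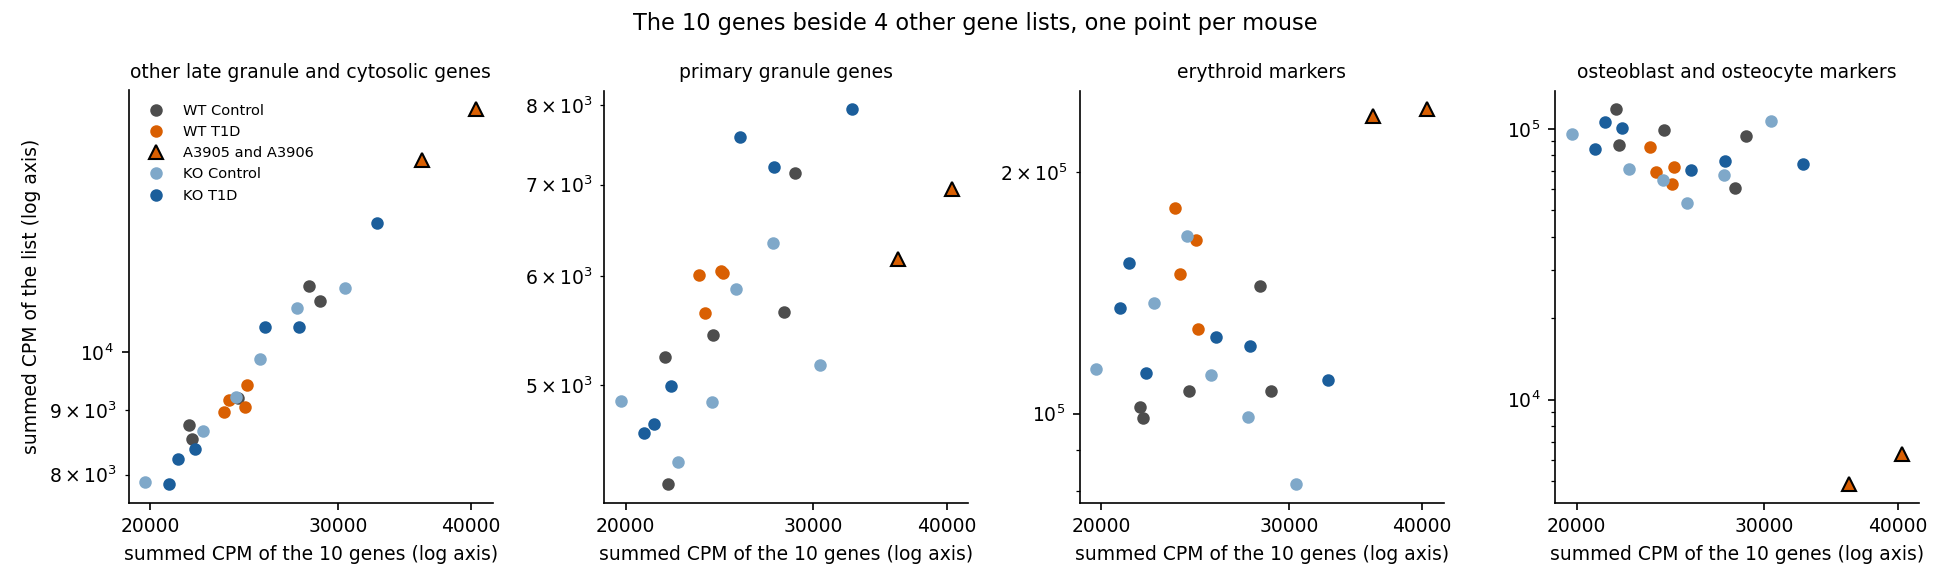
Summed CPM of the 10 genes (x axis, log) and of 4 other lists (y axis, log) in each mouse. A3905 and A3906 (triangles) have the 2 highest levels of the 10 genes (40418 and 35986 CPM), of the other late granule genes, and of erythroid markers, and the 2 lowest of osteoblast and osteocyte markers, while their primary granule genes lie among the other mice.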

How the data were processed

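The authors deposited expected counts per gene, which RSEM had estimated and which were rounded to whole numbers without normalization, and TPM values, for 23 libraries of 1 mouse each. Per the labels and the study's methods, these were polyA libraries that keep strand, read in pairs on a DNBSEQ platform. Reads kept by SOAPnuke were mapped to GRCm38.p6, for which both HISAT and Bowtie2 are named. Whether the counting used strand, and the versions of these tools, are not given in the sources used here. Genes with 10 or more counts in 5 or more mice were fitted with edgeR 4.0.16 in R 4.3.3 (TMM, quasi-likelihood, 4 group means, 23 mice, 6 comparisons), with Benjamini-Hochberg adjustment over all 14364 genes and a threshold of 0.05. CPM were scaled by TMM. The edgeR procedure was tested on simulated data. DESeq2 1.42.0 and limma 3.58.1 (on log2 (TPM + 1) and log2 (TPM + 0.1)) were alternatives, as were DESeq2 size factors or library totals in edgeR, no filter beyond 1 read, only the groups compared, mice A36 to A39 only, leaving out each mouse, and leaving out A3905 and A3906. Tables were made in Python 3.11.15 with pandas 2.3.3. Groups and mouse IDs came from the labels, and each replicate was a separate mouse. The members, the gene lists, and the alternatives were chosen with earlier results of these data known. The text names all members, the 10 genes most like them, Sarm1, and, from the other lists, genes among the 3 largest changes with T1D in WT or past the threshold. The values of 1 marker gene are not reported here.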

Additional observations from a re-analysis of the deposited data

How the results depend on the processing

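No paired analysis was possible because no mouse number is shared between groups. With T1D in WT, members called went from 0 to 1 with DESeq2 and 5 in mice A36 to A39, and genes called from 334 to 1002 with DESeq2, 88 with no filter beyond 1 read, 5164 and 5019 with limma on log2 (TPM + 1) and log2 (TPM + 0.1), 0 with only the groups compared, 2205 in mice A36 to A39, and 0 without A3905 and A3906. For the interaction, limma called 2 genes at both pseudocounts. For T1D averaged over genotypes, 16 genes became 249 with DESeq2, 1171 and 625 with limma, 537 in mice A36 to A39 (with 2 members), and 4 without A3905 and A3906. For KO against WT in T1D, 13 genes became 239 with DESeq2, 5 with DESeq2 size factors in edgeR, 3 with no filter beyond 1 read, 744 and 84 with limma, 4 with only the groups compared, 1538 in mice A36 to A39 (with 2 members), and 4 without A3905 and A3906. The cause of these differences was not tested.

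Leaving out 1 mouse at a time gave 0 to 1 members called with T1D in WT (Olfm4 without A1764, A1758, or A3909) and averaged over genotypes (Olfm4 without A3909). Genes called ranged from 0 to 1264 with T1D in WT, 0 to 1 with T1D in KO, 0 to 210 averaged over genotypes, and 3 to 95 for KO against WT in T1D. With T1D in WT, 334 genes became 689 without A1757, 938 without A1764, 539 without A1758, 1264 without A3909, and 577 without A3766. They became 0 without A3767 or A3907, 3 without A3903, 10 without A3904, 30 without A1787, 7 without A3905, and 16 without A3906, and 69 to 290 without any other mouse.

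Log2 fold changes that changed sign with T1D in WT were, on log2 (TPM + 1), S100a8 −0.03, S100a9 −0.027, Ngp −0.129, Camp −0.125, Cd177 −0.173, and Ly6g −0.23, and on log2 (TPM + 0.1) Cd177 −0.174, Ly6g −0.232, and the same values for the other 4. Without A3905 and A3906 they were S100a8 −0.0053, S100a9 −0.028, Ngp −0.043, Camp −0.077, Chil3 −0.071, Cd177 −0.126, and Ly6g −0.221. Ltf became 0.132 in mice A36 to A39, and Ly6g −0.0084 with library totals. With T1D in KO, limma gave Ngp −0.022 and Chil3 −0.032, and library totals gave Chil3 −0.026. Leaving out 1 mouse gave −0.102 to 0.013 for Ltf and −0.03 to 0.192 for Ly6g in WT, and in KO −0.08 to 0.072 for S100a8, −0.084 to 0.121 for Ngp, −0.114 to 0.013 for Camp, −0.07 to 0.093 for Chil3, and −0.024 to 0.199 for Cd177. The other values of T1D in WT and T1D in KO kept their sign in the alternatives run.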

Other observations

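Genes of eosinophils, granulocytes of the marrow whose granules carry peroxidase and ribonucleases, were compared between genotypes. In T1D, Ear1, a ribonuclease of eosinophil granules, was higher in mice labelled KO than in WT (469 ± 117 CPM, SD, n = 6, against 195 ± 47 CPM, SD, n = 6, log2 difference 1.27 ± 0.25 SE, edgeR adjusted p = 0.0489). Without A3905 and A3906 the difference was 1.23 ± 0.29 (SE, adjusted p = 0.222). All 8 eosinophil markers had values above 0 in both comparisons of genotype, with medians of 0.61 in Control (0 called by edgeR, 6 at an unadjusted p under 0.05) and 1.08 in T1D (1 called). Their summed level was 1229 to 2413 CPM in WT Control, 1276 to 2165 CPM in WT T1D, 1755 to 5065 CPM in KO Control, and 2125 to 4841 CPM in KO T1D, so the genotypes overlapped in both Control and T1D. The Ear genes are close paralogs between which reads could be shared.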
